A study of Mus musculus with 36 samples.

Results

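The acute-phase genes and regulators described here were 8, chosen by name with earlier results of these data known. They were the serum amyloid A genes Saa1, Saa2, Saa3 and Saa4, the haptoglobin gene Hp, the leucine-rich glycoprotein gene Lrg1, and Cebpb and Cebpd, which encode C/EBP transcription factors. They were taken by symbol from the 43472 genes of the count table, of which 23121 had at least 1 count in some library, and all 8 had counts. RNA was measured by 3′ sequencing in primary enteric glial cells (EGCs) grown from neurospheres of the intestines of wild-type C57BL/6J mouse embryos (E13.5) and differentiated in medium with serum, so every group carried the same culture history and no group carried a transgene. The 36 libraries formed 9 groups of 4. EGCs were left unstimulated, were given H-CM, a conditioned medium made from digested healthy colon, or were given TME-CM, a conditioned medium made from digested orthotopic MC38 colon tumors, and each stimulation was read after 6, 12 or 24 h. MC38 is a mouse colon carcinoma line, and the tumor medium came from the mixed cells of the digest, not from tumor cells alone. The labels do not say that the 4 libraries of a group came from separate cultures, so the p-values below measure the spread between these samples, which may be technical.

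In the acute-phase response, interleukins 1 and 6 and tumor necrosis factor change the output of secreted proteins, above all in the liver but also in macrophages, fibroblasts, fat and gut lining. Serum amyloid A proteins are small apolipoproteins of high-density lipoprotein that bind retinol and attract leukocytes. Saa1 and Saa2 are the strongly inducible liver forms, Saa3 is the form made mostly outside the liver in mice, and Saa4 is the constitutive form. Haptoglobin binds free hemoglobin, and LRG1 acts on TGF-beta signaling in endothelium. C/EBP-beta and C/EBP-delta are basic leucine zipper factors that bind the promoters of many acute-phase genes, and both genes are themselves induced by inflammatory cytokines.

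The 4 serum amyloid A genes lie in a stretch of 42316 bases on chromosome 7 (GRCm38, the assembly called mm10). Their positions are Saa3 at chr7:46711998-46715700, Saa4 at chr7:46727998-46732603 and Saa1 at chr7:46740497-46742980, all on the minus strand, and Saa2 at chr7:46751790-46754313 on the plus strand. Saa1 and Saa2 therefore run apart from each other, with starts 8809 bases apart. Hp lies at chr8:109575128-109579172 (minus), Lrg1 at chr17:56119678-56122001 (minus), Cebpb at chr2:167688915-167690418 (plus) and Cebpd at chr16:15887286-15891031 (plus). The Saa1 and Saa2 transcripts were identical at 94.4% of the aligned bases and the Saa1 and Saa3 transcripts at 76.3%. Reads that mapped to several loci were discarded by the authors, and 24 of the 251 words of 50 bases (9.6%) in the last 300 bases of Saa1 also occur in Saa2, so counts of these 2 genes may be somewhat low or split. None of the other 6 members shared such a word with another transcript. Cebpb overlaps exon bases of Tmem189 and Cebpd those of Spidr, each an opposite-strand gene. Whether reads were counted by strand is not given in the sources used here, so the 2 genes of such a pair may share reads.

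RefSeq promoter sequences of GRCm38.p6 were matched for 6 of the 8 members. The stretches from 250 to 51 bases before the RefSeq start of the 3 serum amyloid A genes that were read most are printed 5′ to 3′ on the strand of the gene. They are shown because these genes moved together below and their upstream letters differ. The RefSeq starts of Saa2, Saa3 and Lrg1 are not the gene starts given above, which come from another annotation. Capitals mark matches, on either strand, to a C/EBP motif (TTNNGNAA) or an NF-kB motif (GGG and CC with any 5 bases between), and in Saa1 a match of each kind lies side by side.
Saa1, chr7:46743031-46743230, minus strand: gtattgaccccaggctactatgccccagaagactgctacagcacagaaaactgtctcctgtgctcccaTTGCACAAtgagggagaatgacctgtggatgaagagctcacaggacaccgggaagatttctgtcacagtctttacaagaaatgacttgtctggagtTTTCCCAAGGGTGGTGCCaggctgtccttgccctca
Saa2, chr7:46751583-46751782, plus strand: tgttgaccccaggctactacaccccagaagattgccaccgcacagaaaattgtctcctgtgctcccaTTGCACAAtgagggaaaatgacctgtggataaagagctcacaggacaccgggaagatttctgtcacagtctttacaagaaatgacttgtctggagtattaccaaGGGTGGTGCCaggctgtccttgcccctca
Saa3, chr7:46715727-46715926, minus strand: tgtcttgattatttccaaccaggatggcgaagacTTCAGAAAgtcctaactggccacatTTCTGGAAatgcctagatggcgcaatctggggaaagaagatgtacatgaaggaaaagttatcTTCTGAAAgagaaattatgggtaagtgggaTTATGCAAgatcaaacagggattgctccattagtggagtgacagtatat

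The printed Saa1 and Saa2 stretches were identical at 94.5% of the aligned bases, and Saa1 and Saa3 at 65.1%. With positions counted back from the RefSeq start as negative numbers, C/EBP matches in Saa1 began at −182 and −86 and an NF-kB match at −78. Saa2 held 1 C/EBP match (−183) and 1 NF-kB match (−79). Saa3 held 4 C/EBP matches, at −216, −191, −129 and −99, and no NF-kB match in the 250 bases searched. Saa4 held C/EBP matches at −245 and −52 and an NF-kB match at −210, Lrg1 held only an NF-kB match at −34, and Cebpb held NF-kB matches at −182, −23 and −22. None of the 6 held the STAT motif TTCNNNGAA or the letters TATAAA. Such matches are common: of 32851 promoters of the same length, 36.8% held the C/EBP motif, 45.8% the NF-kB motif and 13.1% both.

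Library totals ran from 13518 to 7552509 counts, and the lowest, H-CM replicate 4 of 6 h, is so shallow that its values for the members rest on between 0 and 44 counts. One entry of the table, Yam1, took from 10.97% to 48.62% of a library's counts. The glial markers were present in every library (a sum of 7 markers with group medians of 234 to 412 CPM, counts per 1000000 counts), and none of them differed between TME-CM and H-CM at any time. Markers of smooth muscle and fibroblasts were also present, with sums of 1240 to 8550 and 1210 to 6710 CPM in single libraries, and hepatocyte markers summed to at most 7.02. Neuron markers summed to 226 to 661 CPM and macrophage markers to 0 to 424 CPM in single libraries. CPM are on library totals scaled by TMM within a time point, and ± gives the SD of 4 libraries. A 3′ count is not scaled by transcript length. In bulk RNA, more cells of a type and more RNA per cell cannot be told apart.

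Compared to H-CM, TME-CM EGCs had higher levels of Saa1, Saa2, Saa3, Hp, Cebpb and Cebpd at 12 h, and of these 6 genes all but Cebpb passed the test at 24 h. At 6 h only Cebpd did. A call here is an adjusted p under 0.05 in edgeR's quasi-likelihood test, with Benjamini-Hochberg adjustment over all genes tested. Of the members, 1 of 3 tested was called at 6 h, where 0.0972% of all genes were, 6 of 6 at 12 h, where 1.89% were, and 5 of 6 at 24 h, where 5.4% were. Compared to unstimulated EGCs, TME-CM gave 1 of 3 members at 6 h (0.454% of all genes), 6 of 6 at 12 h (4.41%) and 6 of 6 at 24 h (9.53%), all higher. At 12 h DESeq2's Wald test called 5 of 6 members against H-CM (382 genes in all) and 5 of 6 against unstimulated EGCs (706 genes). In each of these comparisons the member not called had no adjusted p from that test. At 24 h the Wald test called 6 of 6 in both comparisons (900 and 1419 genes). The members were chosen with earlier results of these data known, and Saa1, Saa2 and Hp passed the filter on low counts only through their TME-CM libraries. These counts of calls therefore describe the members and give no support of their own. Saa4 and Lrg1 were under the filter at every time. Comparisons at one time share the TME-CM libraries. Of all genes tested, 4.06% at 6 h, 7.29% at 12 h and 11.2% at 24 h did not overlap between TME-CM and H-CM, in either direction. Against unstimulated EGCs the shares were 3.53%, 10.6% and 13.1% for TME-CM. For H-CM they were 3.94% at 12 h and 8.15% at 24 h.

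Saa3 had the highest counts of the family. At 12 h its level was 32, 30.3, 36.5 and 39 CPM in the 4 unstimulated libraries, 708, 170, 63.0 and 91.6 CPM with H-CM, and 9815, 7190, 7968 and 7550 CPM with TME-CM. Every TME-CM library thus lay above every other library of 12 h, and the H-CM libraries lay above the unstimulated ones with replicate 1 far above the other 3. The difference of TME-CM from H-CM was 4.98 ± 0.74 (SE) on the log2 scale (edgeR adjusted p = 0.00675), and that from unstimulated EGCs was 7.87 ± 0.86 (edgeR adjusted p = 0.000309). At 24 h the levels were 43.5, 31.6, 29.6 and 28.6 CPM in unstimulated EGCs, 1810, 391, 221 and 270 CPM with H-CM, and 20061, 16915, 17651 and 13839 CPM with TME-CM. The groups of 24 h did not overlap either. The differences were 4.67 ± 0.70 from H-CM (edgeR adjusted p = 0.00338) and 9.02 ± 0.86 from unstimulated EGCs (edgeR adjusted p = 7.89e-05). Transcripts of this single gene took between 1.34% and 2.08% of all counts of a TME-CM library at 24 h, against 0.0238% to 0.187% with H-CM. Since H-CM replicate 1 set much of the spread, the difference of TME-CM from H-CM without it was larger, 6.23 at 12 h and 5.86 at 24 h.

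**Figure D1:**
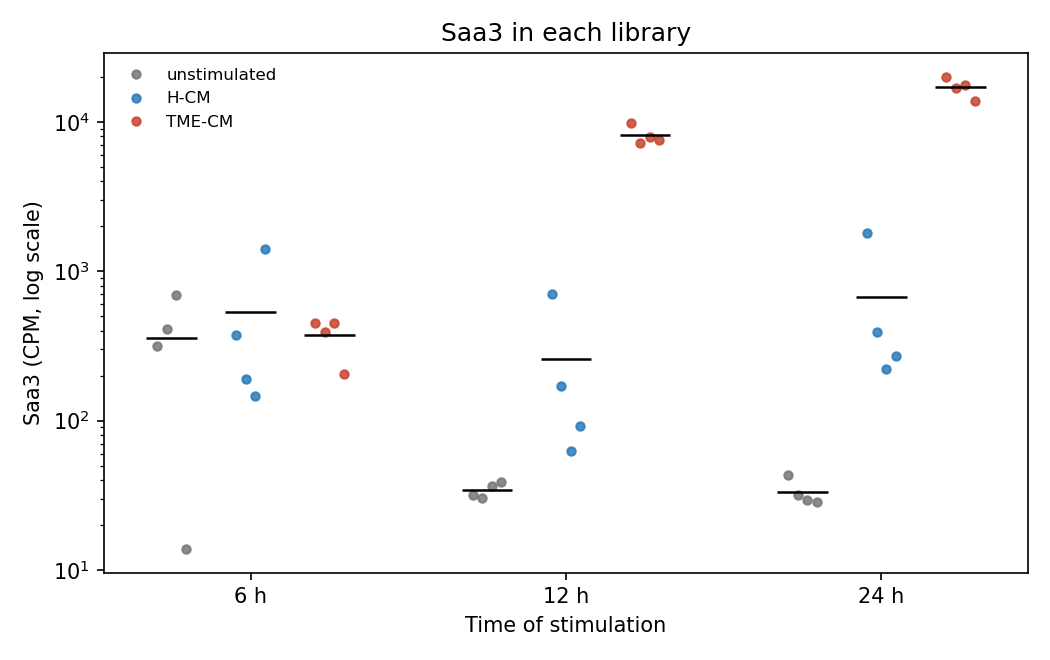
Level of Saa3 in CPM (log axis) in each of the 36 libraries, by stimulation and time, with 4 points a group. At 12 h and 24 h the TME-CM libraries lie between 7190 and 20061 CPM, above all H-CM and unstimulated libraries, and at 6 h the groups overlap.

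Saa1 was almost unread without TME-CM. At 12 h it had 0 counts in all 4 unstimulated libraries, 0.822, 0, 0 and 0.294 CPM with H-CM, and 48.4, 10.3, 22.2 and 32.1 CPM with TME-CM. TME-CM exceeded H-CM by 6.66 ± 0.76 on the log2 scale (edgeR adjusted p = 0.000128), or by 7.60 without H-CM replicate 1, and was at least 27.7-fold higher than unstimulated EGCs, taking 3 counts per library as the level that 0 allows (edgeR adjusted p = 1.51e-05). At 24 h Saa1 stood at 0.285, 0.363, 0 and 0 CPM in unstimulated EGCs, 2.03, 0.548, 0.492 and 0 CPM with H-CM, and 65.8, 37.9, 34.2 and 36.6 CPM with TME-CM. The TME-CM libraries were again above all others, with replicate 1 the highest. The difference from H-CM was 5.70 ± 0.44 (edgeR adjusted p = 6.35e-08), or 6.53 without H-CM replicate 1, and the ratio to unstimulated EGCs, which had 3 counts in all, was 335 with a 95% counting interval of 114 to 1630.

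Saa2, like Saa1, was highest with TME-CM. Its TME-CM libraries held 23.1, 13.6, 14.6 and 7.83 CPM at 12 h, where H-CM gave 1.92, 0, 0 and 0 CPM and unstimulated EGCs 0, 0.852, 0 and 0.138 CPM. The difference of TME-CM from H-CM at 12 h was 5.13 ± 1.0 on the log2 scale (edgeR adjusted p = 0.00621). All counts with H-CM at 12 h came from replicate 1, and without it the other H-CM libraries held 0 counts and the call held (edgeR adjusted p = 0.00024). Without TME-CM replicate 1 of 12 h the call was lost (edgeR adjusted p = 0.0519). At 24 h the TME-CM libraries held 31.3, 25.7, 16.1 and 18.6 CPM, all 4 H-CM libraries held 0 counts and the unstimulated libraries held 1 count in all. TME-CM was at least 27.8-fold higher than H-CM at 24 h (edgeR adjusted p = 6.35e-08). Saa1 and Saa2 were each found in all 8 TME-CM libraries of 12 h and 24 h.

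Saa4, the constitutive form, was read in few libraries. It had 29, 0, 8 and 1 counts in the TME-CM libraries of 24 h, or 4.7, 0, 1.22 and 0.19 CPM, and 0 counts in all H-CM and unstimulated libraries of 24 h. Replicate 1 held most of the counts, and a TME-CM library without any overlapped the other groups. The two-sided exact permutation test gave p = 0.143 against H-CM, where the smallest p of 4 against 4 libraries is 0.0286. At 12 h and 6 h at most 3 counts were read in a library.

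Hp also rose with TME-CM. At 12 h Hp had 16.6, 16.9, 12.1 and 4.7 CPM with TME-CM, 1.64, 0.536, 0.237 and 0 CPM with H-CM, and 0, 1.7, 0 and 0.138 CPM without stimulation. TME-CM overlapped neither of the other groups, which overlapped each other, and it exceeded H-CM by 4.45 ± 0.95 on the log2 scale (edgeR adjusted p = 0.0135). Without TME-CM replicate 1 or without H-CM replicate 2 of 12 h, Hp missed the threshold (edgeR adjusted p = 0.0682 and 0.0568), and without H-CM replicate 1 the difference was 5.51 (edgeR adjusted p = 0.00559). At 24 h it had 49.0, 18.7, 32.2 and 32.6 CPM with TME-CM and 3.39, 1.1, 1.84 and 0 CPM with H-CM, a difference of 4.21 ± 0.41 (edgeR adjusted p = 1.13e-06). Unstimulated EGCs had 1 count of Hp at 24 h, and the ratio of TME-CM to them was 805 with a 95% counting interval of 144 to 31800. Lrg1 was barely read: 4, 5, 3 and 0 counts with TME-CM at 24 h, 2 counts in all without stimulation and 0 counts with H-CM. The two-sided exact permutation p of TME-CM for Lrg1 was 0.143 against H-CM and 0.143 against unstimulated EGCs. Its ratio to unstimulated EGCs was 6.63, with a counting interval of 1.48 to 61 that leaves out the spread between libraries.

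**Figure D2:**
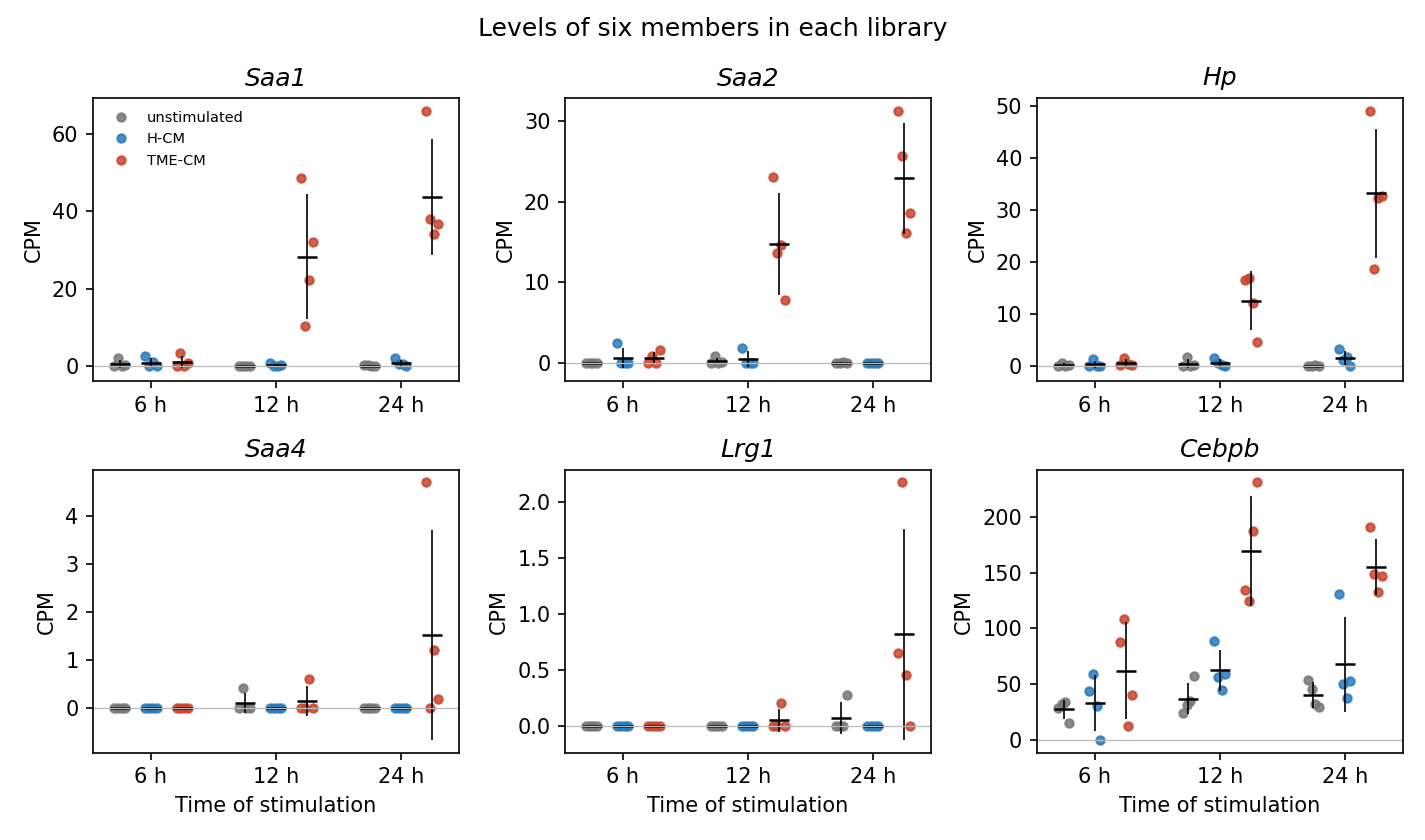
Levels in CPM of Saa1, Saa2, Hp, Saa4, Lrg1 and Cebpb in single libraries, by stimulation and time; black bars are means and vertical lines the SD of 4 libraries. Saa1, Saa2 and Hp stand above their controls with TME-CM at 12 h and 24 h, Saa4 and Lrg1 rest on few counts, and Cebpb has a level in every group.

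Of the regulators, Cebpd was the only member called at 6 h. At 6 h it stood at 28.2, 31.8, 38.6 and 40.2 CPM in unstimulated EGCs, 95.5, 67.1, 39.1 and 32.2 CPM with H-CM, the last of these from 1 count, and 240, 180, 358 and 267 CPM with TME-CM. All TME-CM libraries were above the others, with a difference of 2.92 ± 0.42 on the log2 scale from unstimulated EGCs (edgeR adjusted p = 0.000375). The difference from H-CM at 6 h was 2.04 ± 0.42 (edgeR adjusted p = 0.0441), and this call was lost without any 1 of the 8 libraries compared other than TME-CM replicate 2 (edgeR adjusted p from 0.0556 to 0.488). At 12 h Cebpd had 322, 236, 329 and 356 CPM with TME-CM, 94.8, 41.3, 37.7 and 57.4 CPM with H-CM, and 9.95, 14.1, 25.6 and 24.9 CPM without stimulation. The 3 groups were fully separated, and TME-CM exceeded H-CM by 2.43 ± 0.29 (edgeR adjusted p = 0.000126). At 24 h it had 337, 332, 320 and 362 CPM with TME-CM, 105, 50.7, 38.8 and 41.5 CPM with H-CM and 31.9, 23.6, 31.0 and 24.7 CPM without, with a difference of 2.50 ± 0.25 from H-CM (edgeR adjusted p = 1.24e-05). The TME-CM mean was 261 ± 74.2 CPM at 6 h, 311 ± 52.0 at 12 h and 338 ± 17.7 at 24 h.

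Cebpb, the other regulator, had a level in all 9 groups. At 12 h it had 24.1, 31.5, 35.1 and 57.0 CPM in unstimulated EGCs, 88.8, 56.4, 44.8 and 59.0 CPM with H-CM, and 134, 124, 188 and 231 CPM with TME-CM. TME-CM was separated from both groups, with differences of 1.45 ± 0.27 from H-CM (edgeR adjusted p = 0.00412) and 2.17 ± 0.28 from unstimulated EGCs (edgeR adjusted p = 3.35e-05), while H-CM and unstimulated EGCs overlapped. At 24 h Cebpb had 191, 149, 133 and 147 CPM with TME-CM and 131, 50.4, 37.3 and 52.4 CPM with H-CM. The groups just failed to overlap, and the difference of 1.2 ± 0.35 from H-CM missed the threshold (edgeR adjusted p = 0.0744). Without H-CM replicate 1 of 24 h it was 1.75 (adjusted p = 9.1e-06). Against unstimulated EGCs at 24 h, which had 54.1, 45.7, 32.2 and 29.2 CPM, TME-CM was higher by 1.96 ± 0.35 (edgeR adjusted p = 0.00285).

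**Figure D3:**
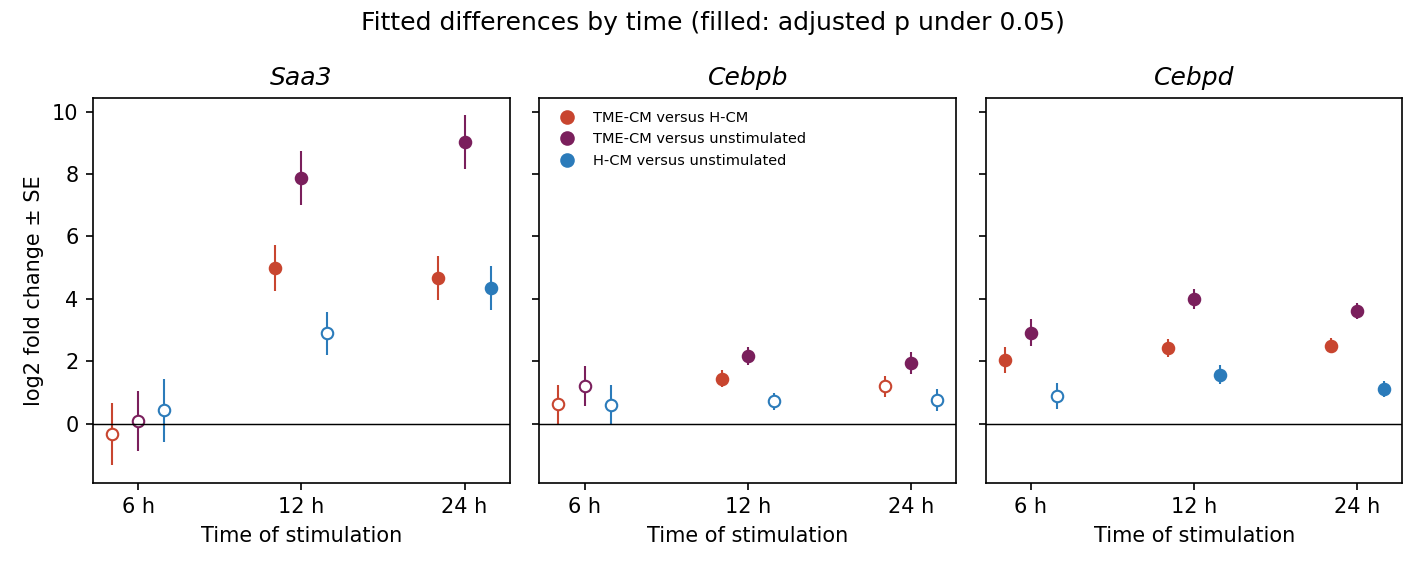
Log2 fold changes with SE (edgeR) of Saa3, Cebpb and Cebpd by time for TME-CM against H-CM, TME-CM against unstimulated and H-CM against unstimulated; filled points are called. Cebpd is called at 6 h, and Saa3 lies at −0.33 against H-CM at 6 h and at 4.98 at 12 h.

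At 6 h no member other than Cebpd was called. Saa3 had 314, 409, 689 and 13.8 CPM in unstimulated EGCs, 376, 189, 145 and 1418 CPM with H-CM, the last from 44 counts, and 450, 394, 451 and 206 CPM with TME-CM. The 3 groups overlapped, and the difference of TME-CM from H-CM was −0.33 ± 1.0 on the log2 scale (edgeR adjusted p = 0.979). Unstimulated EGCs of 6 h also stood at 356 ± 279 CPM of Saa3, against 34.4 ± 4.03 at 12 h and 33.3 ± 6.91 at 24 h. The 3 unstimulated libraries of 6 h with 314 to 689 CPM had totals of 256453 to 1731959 counts and 43.15% to 46.26% of them on Yam1, while replicate 4, with 13.8 CPM, had 4631102 counts and 13.14% on Yam1. The part of depth and of Yam1 in the Saa3 level of 6 h was not tested. Cebpb had 87.8, 108, 12.1 and 40.3 CPM with TME-CM at 6 h and overlapped both other groups. Saa1, Saa2 and Hp had at most 3.3 CPM in any library of 6 h.

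Over time in TME-CM EGCs, Saa3 was the 1 of 6 members tested that was called from 6 h to 12 h, where 1.39% of all genes were called. It was higher at 12 h by 4.14 ± 0.93 on the log2 scale (edgeR adjusted p = 0.0341). This call was lost without any 1 of the TME-CM libraries of 12 h and without replicate 3 or 4 of 6 h (edgeR adjusted p from 0.0526 to 0.0861). Saa1 changed by 4.75 (edgeR adjusted p = 0.0554), Hp by 4.37 (adjusted p = 0.0872), Saa2 by 4.21 (adjusted p = 0.125) and Cebpb by 1.18 (adjusted p = 0.138), none past the threshold, but without TME-CM replicate 2 of 6 h Saa1, Hp and Cebpb were called (edgeR adjusted p = 0.0133, 0.034 and 0.035). Cebpd differed by −0.05 ± 0.33 (edgeR adjusted p = 0.952). For Saa1, Saa2, Saa3, Hp and Cebpb every TME-CM library of 12 h lay above every one of 6 h. Of all genes tested, 12.8% did not overlap in either direction. The labels name no batch, and time and any batch of a time point cannot be told apart. Whether the effect of TME-CM against H-CM itself grew from 6 h to 12 h was tested as an interaction, which called 0 of 6 members and 0% of all genes by edgeR, with 4 members and 1225 genes at an unadjusted p under 0.05 and 1 member by DESeq2. The change of the effect was 5.13 ± 1.26 for Saa3 (edgeR adjusted p = 0.216) and 6.68 ± 2.09 for Saa1 (edgeR adjusted p = 0.275). Without TME-CM replicate 2 of 6 h the change for Saa1 was called at 7.87 (edgeR adjusted p = 0.0478). The edgeR adjusted p of the change was 0.51 for Saa2, 0.459 for Hp, 0.677 for Cebpb and 0.848 for Cebpd. Saa4 and Lrg1 stayed under the filter.

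From 12 h to 24 h in TME-CM EGCs, 0 of 6 members were called by edgeR (0.626% of all genes were), with 1 member at an unadjusted p under 0.05 and 0 by DESeq2. Saa3 went from 8131 ± 1167 to 17117 ± 2565 CPM, and its libraries of the 2 times did not overlap, yet the difference of 0.93 ± 0.63 missed the threshold (edgeR adjusted p = 0.811); with the 8 TME-CM libraries fitted alone it passed (edgeR adjusted p = 0.00715). Hp had 12.6 ± 5.69 CPM at 12 h and 33.1 ± 12.4 at 24 h, also without overlap, with a difference of 1.27 ± 0.53 (edgeR adjusted p = 0.489). Of all genes tested, 7.61% did not overlap between these times in either direction. Saa1 differed by 0.48 ± 0.43, Saa2 by 0.48 ± 0.55, Cebpb by −0.27 ± 0.31 and Cebpd by −0.02 ± 0.28, with edgeR adjusted p-values from 0.863 to 0.993, and their libraries of both times overlapped. Saa4 and Lrg1 were not tested. The effect of TME-CM against H-CM changed in 0 of 6 members and 0% of all genes by edgeR, with 1 member and 436 genes at an unadjusted p under 0.05 and 0 members by DESeq2. The change was −0.30 ± 0.89 for Saa3, −0.27 ± 0.84 for Hp, −0.24 ± 0.45 for Cebpb and 0.09 ± 0.40 for Cebpd. Saa2, with 0 counts in H-CM at 24 h, was the member at an unadjusted p under 0.05.

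H-CM was also compared to unstimulated EGCs. Against unstimulated EGCs it called 0 of 3 members at 6 h (0% of all genes by edgeR, 58 genes and 1 member at an unadjusted p under 0.05, 0 members by DESeq2), 1 of 6 at 12 h (0.403% of all genes) and 3 of 6 at 24 h (2.03%). Cebpd was higher with H-CM by 1.58 ± 0.30 on the log2 scale at 12 h (edgeR adjusted p = 0.0171) and by 1.10 ± 0.25 at 24 h (edgeR adjusted p = 0.0309). The call at 12 h was lost without unstimulated replicate 1 or 2 (edgeR adjusted p = 0.071 and 0.107) and that at 24 h without any 1 of the unstimulated libraries (0.0657 to 0.119). Saa3 was higher by 4.35 ± 0.71 at 24 h (edgeR adjusted p = 0.0122), a call lost without unstimulated replicate 2, 3 or 4 (edgeR adjusted p from 0.0523 to 0.0546). At 12 h the Saa3 libraries of H-CM and unstimulated EGCs did not overlap, with a difference of 2.89 ± 0.69 that missed the threshold (edgeR adjusted p = 0.240). Hp, with 36 counts against 1 at 24 h, had a ratio of 40.8 with a counting interval of 6.87 to 1660 (edgeR adjusted p = 0.00571). The groups overlapped, as H-CM replicate 4 had 0 counts of Hp. In one model of all 36 libraries this call was lost (edgeR adjusted p = 0.1). Saa1 had 16 counts against 3 at 24 h, a ratio of 6.04 with a counting interval of 1.73 to 32.4 that was not called (edgeR adjusted p = 0.257), and Saa2 had 0 counts against 1. Cebpb differed by 0.72 ± 0.27 at 12 h (edgeR adjusted p = 0.656) and 0.76 ± 0.35 at 24 h (edgeR adjusted p = 0.478). At 12 h Saa1, Saa2 and Hp had 5, 7 and 10 counts with H-CM and 0, 3 and 5 counts without stimulation.

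In H-CM, replicate 1 stood apart. It was the highest of its group in 6 of the 6 members with counts at 12 h and in 5 of 5 at 24 h. Without replicate 1 of 24 h, the Saa3 difference from unstimulated EGCs was 3.16 (edgeR adjusted p = 1.66e-08), and Hp and Cebpd were still called. Without replicate 1 of 12 h, Saa3 became a call at 1.64 (edgeR adjusted p = 0.00206) and Cebpd lost its call (edgeR adjusted p = 0.0564). The replicate 1 libraries of 12 h and 24 h are separate samples, and whether their number links them was not tested. Their macrophage markers each summed to 196 CPM, within the range of the other H-CM libraries (70.4 to 216 CPM at 12 h and 81.4 to 335 CPM at 24 h). Their neutrophil markers summed to 7.4 CPM at 12 h and 7.68 CPM at 24 h, each the highest sum of its group (the other libraries had 0 to 6.96 CPM and 4.3 to 5.69 CPM). The part of these markers in the result was not tested. With TME-CM, replicate 1 was the highest of its group in 3 of 8 members at 12 h and in 6 of 8 at 24 h. The neutrophil markers of TME-CM replicate 1 summed to 22.4 CPM at 12 h and, the highest of the group, to 45.2 CPM at 24 h. In unstimulated EGCs, replicate 1 was the highest in 0 of 6 members at 12 h and in 3 of 7 at 24 h.

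Other acute-phase genes, from a list of 28 positive reactants without the members, were read beside the members. Of 11 that passed the filter, 9 were higher and none lower with TME-CM against H-CM at 12 h, with a median log2 difference of 2.81 where the median over all genes was −0.0011, and 11 of 11 were higher at 24 h with a median of 2.69 beside 0.0049 over all genes. The largest were Lcn2, which encodes the iron-siderophore binding lipocalin 2 (5.25 at 12 h and 4.97 at 24 h, edgeR adjusted p = 0.000864 and 0.00219), and the metalloreductase gene Steap4 (5.36 and 3.68). The complement gene C3 (2.94 and 3.64) and Lbp, whose product binds lipopolysaccharide (3.82 and 3.63), followed. Lcn2 rested at 2.01 CPM in unstimulated EGCs, 35.0 ± 43.2 with H-CM and 1124 ± 123 with TME-CM at 24 h, and its H-CM libraries were 99.3, 20.8, 11.4 and 8.54 CPM, replicate 1 again the highest. At 6 h 1 of 7 list genes tested was higher. H-CM against unstimulated EGCs at 24 h gave 6 higher and 1 lower of the list. Of 9 negative reactants, which fall in the liver response, only Trf, the transferrin gene, passed the filter at 12 h and 24 h. It was not called between TME-CM and H-CM, but was higher with TME-CM than in unstimulated EGCs at 24 h by 1.84 ± 0.43 (edgeR adjusted p = 0.0058). Of 4 other C/EBP family genes tested, none was called between TME-CM and H-CM, and Cebpa was lower with TME-CM than in unstimulated EGCs at 24 h by 1.19 ± 0.37 (edgeR adjusted p = 0.0425). Several list genes, like the members, passed the filter through their TME-CM libraries, so the list counts are a description.

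**Figure D4:**
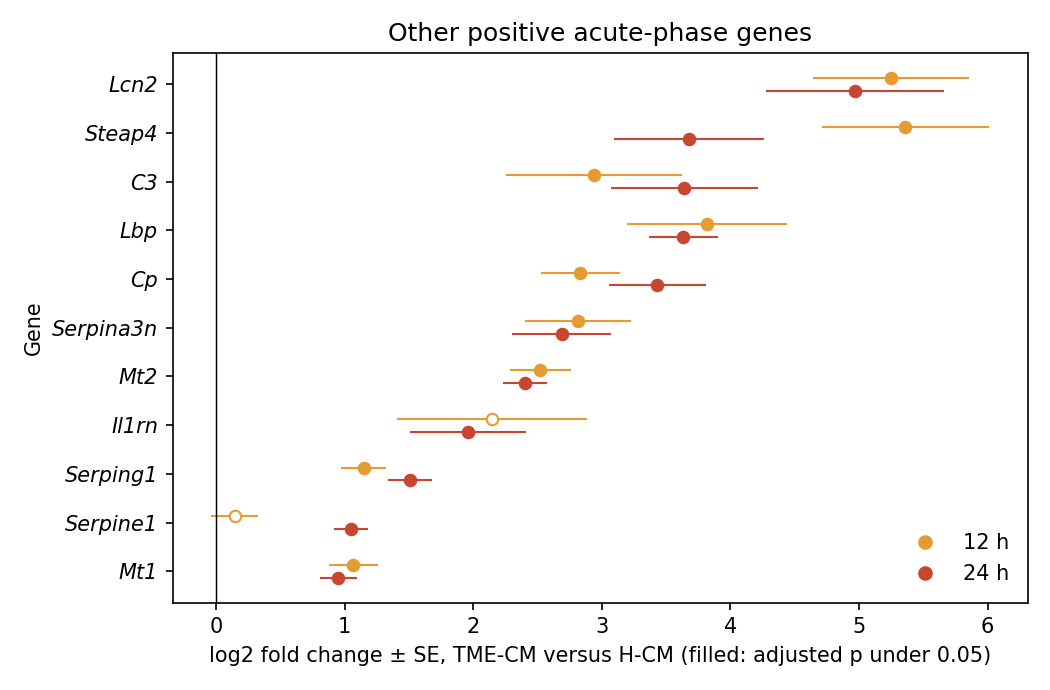
Log2 fold changes with SE (edgeR) of the 11 tested positive acute-phase list genes for TME-CM against H-CM at 12 h and 24 h. All 11 lie above 0 at 24 h.

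Genes upstream of the acute-phase response were taken from lists of cytokines and of receptor, STAT3 and NF-kB arm genes. Of 10 cytokine genes 3 passed the filter. Il6, the interleukin 6 gene, was higher with TME-CM by 4.97 ± 0.66 at 12 h (edgeR adjusted p = 0.000334) and 3.22 ± 0.62 at 24 h (edgeR adjusted p = 0.00294), and Lif, a cytokine of the same family, by 1.83 ± 0.35 at 24 h (edgeR adjusted p = 0.00219). Of the 16 receptor and signaling genes, 6 were higher at 12 h and 8 at 24 h, with list medians of 0.758 and 0.723. Among them were Socs3, a feedback inhibitor of STAT3 (2.14 and 2.13), Bcl3 (1.55 and 2.22) and Nfkbiz (1.43 and 1.82), nuclear partners of NF-kB, and the oncostatin M receptor gene Osmr (1.33 and 1.58). Of 14 genes for receptors or partners of the members' products, 11 passed the filter at 24 h, Tlr2, which encodes a receptor of serum amyloid A, was higher by 2.49 (edgeR adjusted p = 0.0117) and Acvrl1 lower by 0.58 (edgeR adjusted p = 0.0357). Over all genes 1.89% were called at 12 h and 5.4% at 24 h, with medians of −0.0011 and 0.0049. These lists were chosen with earlier results of these data known, so their counts are a description.

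Marker genes of other cells that could make acute-phase proteins were read beside these results. Neutrophil markers summed to 21.1 to 45.2 CPM in TME-CM libraries of 24 h and 4.3 to 7.68 CPM in H-CM libraries, S100a8 being higher by 3.33 (edgeR adjusted p = 4.88e-06), and 2 of the 7 neutrophil markers had 0 counts in all 8 of these libraries. None of 5 macrophage markers tested was called. At 24 h the smooth muscle genes Myh11, Des, Acta2 and Cnn1 were lower by 1.40, 0.98, 0.80 and 0.70, and the fibroblast genes Dcn, Pdgfra and Lum were higher by 1.21, 0.93 and 0.65 while Pdgfrb was lower by 0.51. Of the endothelial markers Kdr was lower by 1.65, none of 6 neuron markers was called, and epithelial markers summed to at most 13.3 CPM in a library. The part of these cells in the members' levels was not tested.

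The members with a mean of at least 5 CPM were compared with the other 10185 genes of that level over the 24 libraries of 12 h and 24 h, by Pearson's r of log2 CPM. These libraries fall into TME-CM and other libraries, so r mostly reflects that split and is given as a description. Saa3 was most like Lcn2 (0.99), Cp (0.982) and Mmp9 (0.979). Saa1 was nearest to Chil1 (0.98), Sod2 (0.976) and Slpi (0.973), and Saa2 to Chil1 (0.958), Rgs4 (0.954) and Ifitm1 (0.951). Hp was nearest to Lcn2 (0.958), Fam20c (0.951) and Vnn1 (0.949), Cebpb to Ccl2 (0.953), Ch25h (0.946) and Ccl7 (0.94), and Cebpd to Ccl7 (0.97), Steap4 (0.967) and Ier3 (0.967).

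Among themselves, Saa3 and Cebpd had r = 0.97 and Saa3 and Cebpb r = 0.93 over the 24 libraries. Within the 8 TME-CM libraries alone, r of Saa3 was 0.388 with Cebpd and −0.143 with Cebpb, against 0.795 with Hp, 0.73 with Saa2 and 0.687 with Saa1. These 8 hold both 12 h and 24 h. Saa3 and Hp did not overlap between those times while the other genes did, so r can also reflect time. Within the 16 other libraries, which include H-CM and unstimulated EGCs of both times, r of Saa3 was 0.848 with Cebpd and 0.792 with Cebpb. It was 0.778 with Saa1, 0.703 with Hp and 0.159 with Saa2. All values of a library share its depth and scaling.

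**Figure D5:**
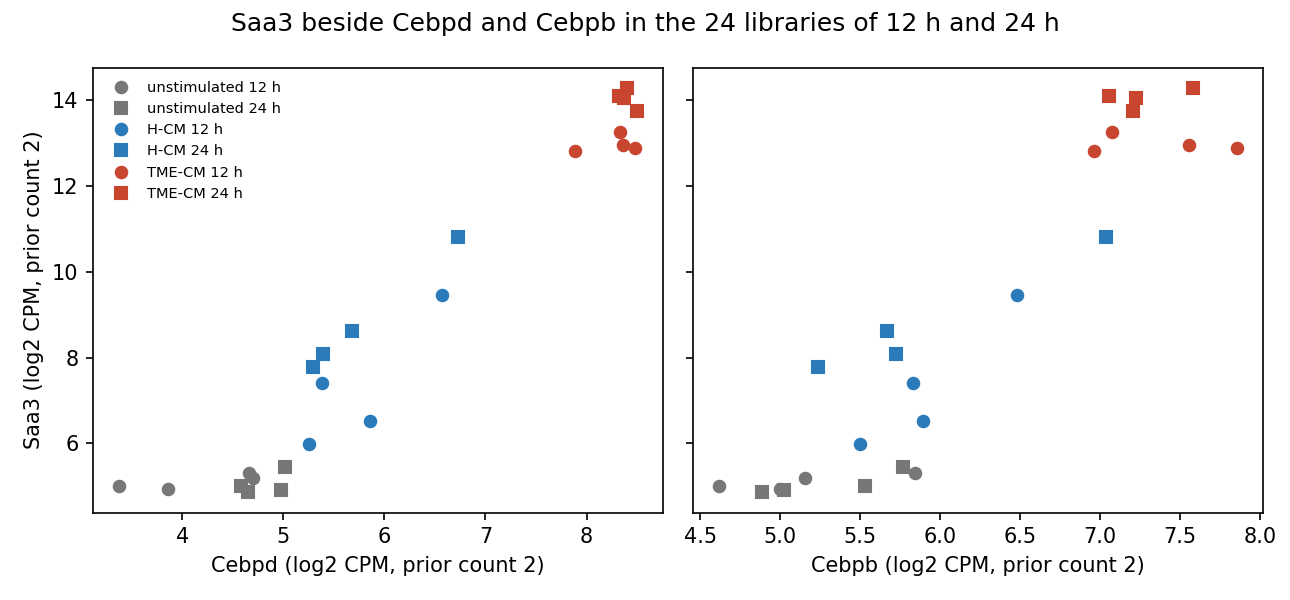
Saa3 against Cebpd and against Cebpb in log2 CPM, 1 point for each of the 24 libraries of 12 h and 24 h, by stimulation. TME-CM libraries form a separate cloud at high values of both genes, within which Saa3 has r = 0.388 with Cebpd.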

How the data were processed

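Primary EGCs were profiled in 36 libraries with a 3′ mRNA kit that reads transcripts from their 3′ ends. The authors filtered adapters, aligned reads to mm10 with HISAT2 under default settings, discarded reads mapping to several loci and used HT-seq Count on genes. The deposited values are the authors' raw counts. FastQC 0.11.7 and SAMtools 1.5 are listed in the submitters' processing notes. The gene annotation, the strand setting and any use of molecular identifiers are not given in the sources used here, so a count is a read. Columns were matched to samples by title, and 0 columns were left out.

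The tests ran under R 4.3.3, using edgeR 4.0.16 (limma 3.58.1). For each time point the 12 libraries were fitted together with filterByExpr (minimum count 10), TMM scaling, a robust quasi-likelihood fit and one mean per group, with no covariate. Changes over time and of the TME-CM effect were fitted to the 24 libraries of both times. Calls are adjusted p under 0.05 (Benjamini-Hochberg over all genes tested). The common dispersion fell with time (0.572, 0.122 and 0.0455), so 6 h gives the least precise values. Library totals ran from 13518 to 7552509 counts. Members under the filter were tested with a two-sided exact permutation test of CPM. Folds against libraries that all had 0 counts are lower bounds against 3 counts per library. Against 1 to 3 counts in a group, the ratio with its 95% exact counting interval is given. These limits cover counting error only. The calling was tested on simulated data. Log2 CPM for likeness used a prior count of 2.

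The rule names all 8 members, and those under the filter are named where they had counts. List genes are named where called for TME-CM against H-CM at 12 h or 24 h, up to 4 a list, largest change first with a group mean of at least 5 CPM, and up to 3 most like genes a member. Marker genes and genes of lists with fewer calls were named beside results they touch. The members and lists were chosen with earlier results of these data known. Alternatives were DESeq2 1.42.0 (size factors and Wald test), no filter, one model of all 36 libraries, only the groups compared, a replicate block, Yam1 removed, a term for a Yam1 share above 25%, other scales for levels and likeness, and each library left out. TMM over all 36 libraries was added after seeing the data. Positions are from a GRCm38 annotation and promoters from RefSeq, of GRCm38.p6.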

Additional observations from a re-analysis of the deposited data

Results flagged for a closer look

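Within groups of 4, 57 sets of a member's CPM with at least 1 count were checked, and in 17 of them the highest library stood apart from the other 3 by more than Dixon's 95% critical value. Chance flags about 1 in 20 such sets, and most of these rest on a few counts in otherwise empty groups.

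With many counts behind them, H-CM replicate 1 stood apart for Saa3 at 12 h (708 CPM) and at 24 h (1810 CPM) and for Cebpb at 24 h (131 CPM), and TME-CM replicate 1 for Saa1 at 24 h (65.8 CPM).

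The others were single libraries with few counts. Saa1 stood at 1.99 CPM in unstimulated replicate 2 of 6 h. Saa2 stood at 2.51 CPM in H-CM replicate 1 of 6 h, 0.852 CPM in unstimulated replicate 2 of 12 h, 1.92 CPM in H-CM replicate 1 of 12 h and 0.16 CPM in unstimulated replicate 3 of 24 h. Saa4 stood at 0.426 CPM in unstimulated replicate 2 of 12 h and 0.617 CPM in TME-CM replicate 3 of 12 h. Hp stood at 1.35 CPM in H-CM replicate 2 of 6 h, 1.65 CPM in TME-CM replicate 2 of 6 h, 1.7 CPM in unstimulated replicate 2 of 12 h and 0.16 CPM in unstimulated replicate 3 of 24 h. Lrg1 stood at 0.206 CPM in TME-CM replicate 3 of 12 h and 0.279 CPM in unstimulated replicate 4 of 24 h.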

How the results depend on the processing

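No call of a member changed direction under any alternative. In 30 cases of a difference under a setting the sign changed, and these touched only differences that had not been called. They include Saa2 of H-CM against unstimulated at 24 h, which went to 0. Of 30 called differences 9 lost their call somewhere, where a result without an adjusted p was not counted as lost. DESeq2's Wald test called 5 of 6 members for TME-CM at 12 h, both against H-CM and against unstimulated. The member not called had no adjusted p from that test, so it did not miss the threshold. The cause of a lost or missing call was not tested in any case. Saa1, Saa2 and Hp were under the filter at 6 h, and a count of 0 in H-CM replicate 4 of 6 h allows up to 96.7 CPM, taking 3 counts as the limit.

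The number of members called for TME-CM against H-CM at 6 h was 0, not 1, with DESeq2 size factors, with the replicate block and with the Yam1 term, and ranged from 0 to 1 over single libraries left out. For H-CM against unstimulated it was 2 at 12 h without the filter and 0 with only the groups compared (0 to 1 with single libraries left out). At 24 h it was 5, 0 and, in one model of all 36 libraries, 1 (1 to 3). From 6 h to 12 h in TME-CM it was 2 without the filter, 0 with the replicate block or Yam1 term, 3 with DESeq2's Wald test and 5 in one model of all 36 libraries (0 to 4). For the change of the effect from 6 h to 12 h it was 1 without the filter, with the Wald test and in one model of all 36 libraries (0 to 1). From 12 h to 24 h in TME-CM it was 1 without the filter and with only the groups compared.

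Saa3 of TME-CM against unstimulated at 6 h turned to −0.12 (size factors), −0.16 (Yam1 term) and −0.14 (Wald test). Cebpd of TME-CM at 12 h against 6 h turned to 0.010 (size factors), 0.054 (Yam1 term) and 0.010 (Wald test), and at 24 h against 12 h to 0.013 with the replicate block. With single libraries left out, Saa3 at 6 h ranged from −0.31 to 0.63 for TME-CM against unstimulated, −0.56 to 0.89 for H-CM against unstimulated and −0.67 to 0.72 for TME-CM against H-CM. For H-CM against unstimulated, Saa2 ranged from −3.04 to 2.02 at 12 h and −1.86 to 0 at 24 h, and Hp from −0.56 to 2.49 at 12 h. Cebpd in TME-CM ranged from −0.21 to 0.17 (12 h against 6 h) and −0.13 to 0.042 (24 h against 12 h). The change of the effect from 12 h to 24 h ranged from −1.54 to 0.89 for Saa3, −1.30 to 0.25 for Hp, −0.45 to 0.31 for Cebpb and −0.24 to 0.53 for Cebpd.

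Counts of all genes called moved widely: for TME-CM against H-CM, 9 at 6 h (2 to 899), 230 at 12 h (81 to 465) and 686 at 24 h (71 to 932), for TME-CM against unstimulated 42 (21 to 1113), 536 (288 to 706) and 1211 (265 to 1613), and for H-CM against unstimulated 49 at 12 h (28 to 168) and 258 at 24 h (34 to 446), over settings other than left-out libraries. From 6 h to 12 h in TME-CM it was 176 (43 to 1351) and from 12 h to 24 h 82 (2 to 175), and for the change of the effect from 6 h to 12 h 0 (up to 130). In one model of all 36 libraries Cebpb at 12 h lost its call against H-CM (edgeR adjusted p = 0.0916). Same-numbered libraries had correlations from −0.162 to 0.229, mostly under 0.1, which does not settle whether the numbers pair them. At 12 h the macrophage markers summed to 264, 216 and 303 CPM in replicate 2 of unstimulated, H-CM and TME-CM EGCs. In replicate 4 of these groups they summed to 52.4, 70.4 and 83.5 CPM. Whether libraries of a number share an origin was not tested. Cebpb for TME-CM against H-CM at 24 h became a call with the replicate block (edgeR adjusted p = 0.000185), without the filter (1.19e-11), with DESeq2's Wald test (0.0298, which called 6 of 6 members) and without H-CM replicate 1. On scaling over all 36 libraries, chosen after seeing the data, Cebpd with TME-CM at 24 h had 298 CPM in place of 338. Over all 36 libraries, 1 of the 3 most like genes was shared for Saa1, Saa2, Hp and Cebpd and 0 for Cebpb.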
